A study of Mus musculus with 6 samples.

Results

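Counts of cytosolic ribosomal protein genes were examined in mouse splenic memory B cells. A symbol was a member if it was Rpl or Rps followed by a number and an optional suffix, Rplp0 to Rplp2, or Rpsa, and 89 of the 35186 symbols in the count table met this rule. By name, 52 belong to the large subunit and 37 to the small subunit. By class, 77 were core ribosomal proteins, 8 were paralogs such as Rpl3l and Rps27l, and 4 were further annotated copies (Rps12l1, Rps12l2, Rps3a2 and Rps3a3). GENCODE annotates Rps12l1, Rps3a2 and Rps3a3 as processed pseudogenes and the paralog Rps4l as a transcribed processed pseudogene, and Rps12l2 had no matching entry. The cells were sorted for specificity to NP, a hapten used as a model antigen, from C57BL/6J mice. A group of 3 libraries was labelled wild type (WT) and a group of 3 was labelled Nix-/-Bnip3-/- (DKO), a genotype that names the mitophagy receptor genes Bnip3l (Nix) and Bnip3. No age, immunisation time or Cre driver was given in the labels, and each library came from about 1000 cells, with cDNA enriched for polyadenylated RNA by a kit for single-cell RNA. Whether replicate libraries stem from different mice is not stated, so each p-value reflects library-to-library spread that could be technical. In such bulk samples, fewer cells of a type and less RNA per cell cannot be told apart.

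The cytosolic ribosome joins a small subunit, which decodes the mRNA, to a large subunit, which forms the peptide bond. Each core protein is present once per ribosome, apart from the stalk proteins, so cells keep the output of these genes in balance. Their mRNAs are short, carry a pyrimidine tract at the 5′ end (the TOP motif) through which mTOR signalling controls their translation, and are usually among the most abundant mRNAs of a lymphocyte.

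Total counts were 312908, 500527 and 319863 in WT1, WT2 and WT3, and 444461, 517057 and 514854 in DKO1, DKO2 and DKO3. At this depth 1 count corresponded to 1.84 to 5.25 normalized CPM (counts relative to the scaled library size). The targeted genes were checked first. Bnip3l had 1, 8 and 0 counts in WT and 10, 16 and 41 in the libraries labelled DKO, against its label, and Bnip3 had 25, 62 and 6 in WT and 2, 24 and 11 in DKO. Where in these genes the deletions lie is not given in the labels, so reads outside a deleted part would check nothing. Every direction below is therefore between libraries labelled WT and libraries labelled DKO. The B cell marker list, all 12 of whose genes in the table had a count, summed to 122, 156 and 70 counts in WT and 165, 177 and 204 in DKO. In normalized CPM the same markers summed to 637, 603 and 368 in WT and 373, 326 and 395 in DKO, so the order of the groups depended on the scale. Memory B cell markers summed to 57, 41 and 35 counts in WT and 137, 114 and 129 in DKO. In normalized CPM they overlapped, at 158 to 298 in WT and 210 to 310 in DKO. Plasma cell markers summed to 23, 47 and 53 counts in WT and 167, 117 and 37 in DKO, overlapping on both scales. Spearman correlations across all symbols, which are not independent replicates, were 0.418 to 0.429 between WT libraries and 0.655 to 0.671 between DKO libraries.

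Start sequences are shown because the TOP motif is a known feature of these genes. RefSeq starts (build GRCm38.p6) were found for 64 of the 89 members. The window ran from 10 bases before to 20 bases after each annotated start, and the motif searched was a C followed by at least 4 bases that were each C or T, on the gene's own strand. A run of this kind was in the window of 43 of 64 member genes (67.2%) and of 39.6% of all 27025 genes with an entry. A run of 8 or more bases was in 37.5% of the member genes and 10.1% of all genes. The share was close between subunits, at 67.5% of the large and 66.7% of the small subunit genes. The lines below give members that had high counts here, with the run in capitals, followed by Rps3 and Rpl10, which have no such run in this window.
Rps15a, chr7:118116128-118116157, minus strand: tttctgccatCTTCCCTCgccggtgagtga
Rps10, chr17:27635225-27635254, minus strand: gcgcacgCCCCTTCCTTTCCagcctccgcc
Rps18, chr17:33955646-33955675, minus strand: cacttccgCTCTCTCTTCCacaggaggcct
Rpl13a, chr7:45128726-45128755, minus strand: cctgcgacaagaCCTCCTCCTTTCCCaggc
Rpl15, chr14:18270967-18270996, minus strand: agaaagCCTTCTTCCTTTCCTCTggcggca
Rps3, chr7:99483690-99483719, minus strand: aagggtcgccgcgctgcgcggcgtcattgc
Rpl10, chrX:74270806-74270835, plus strand: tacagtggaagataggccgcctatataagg
A match is a description of these letters and not a mapped start, and a missing run says only that the letters are not in this window.

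Ribosomal protein genes took a small share of the reads, and the share overlapped between the groups. The members held 974, 1194 and 526 counts in WT1, WT2 and WT3 and 1089, 1182 and 1072 in DKO1, DKO2 and DKO3, which is 6037 counts or 0.231% of all counts. As a share of the library this was 0.311% (95% exact binomial interval 0.292% to 0.331%) in WT1, 0.239% (0.225% to 0.252%) in WT2 and 0.164% (0.151% to 0.179%) in WT3. In DKO it was 0.245% (0.231% to 0.260%), 0.229% (0.216% to 0.242%) and 0.208% (0.196% to 0.221%). The WT libraries held both the highest and the lowest share. These intervals describe counting error alone and take each read as independent. PCR copies of a molecule are not independent, so the intervals can be too narrow even for counting error. The same holds for the intervals of the subunit share below. The group means were 0.238% ± 0.0734 in WT and 0.227% ± 0.0184 in DKO (SD, n = 3; exact two-sided permutation p = 0.8, adjusted p = 0.8 over 4 tests of single values, smallest p possible 0.1). Without WT1 the sign of the difference, DKO minus WT, turned from -0.0108 to 0.0258 percentage points. On the scale of normalized CPM, which also carries the scaling factors of the libraries (0.695 to 0.812 in WT and 1.28 to 1.38 in DKO), the members summed to 2762 to 5087 in WT and 2076 to 2463 in DKO. The groups were thus apart after scaling and overlapped as a share of counts.

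**Figure D1:**
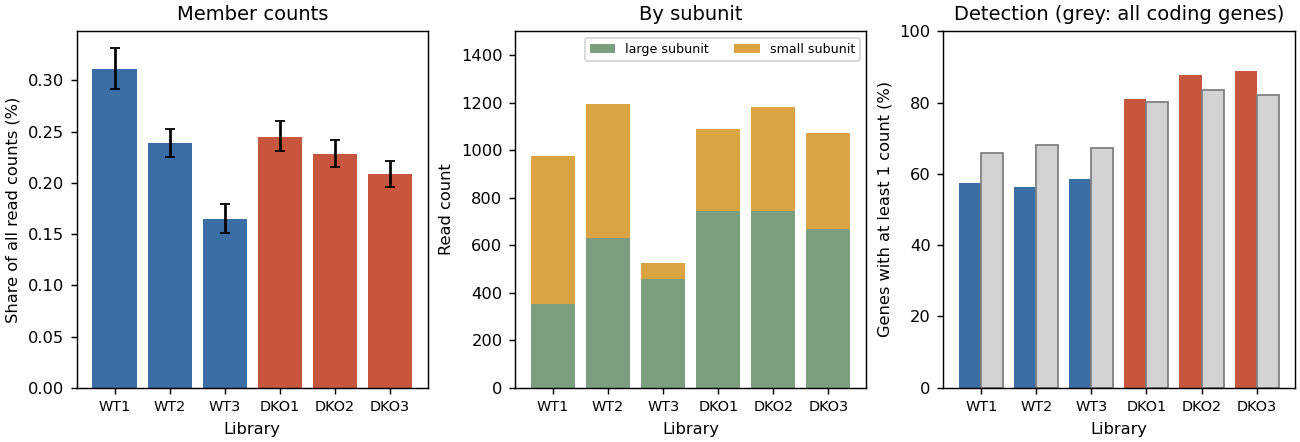
Ribosomal protein genes in each of the 6 libraries: share of all read counts in percent with 95% exact binomial intervals (left), read counts of large and small subunit genes stacked (middle), and the percent of members (coloured) and of all coding genes (grey) with at least 1 count (right). WT3 has the lowest share, 0.164%, and 69 small subunit counts, and members trail the coding genes in WT but not in DKO.

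More members were counted in each library labelled DKO than in any WT library, as was true of genes at large. At least 1 count was found for 51, 50 and 52 members in WT and 72, 78 and 79 in DKO (exact two-sided permutation p = 0.1, the smallest possible, adjusted p = 0.4, n = 3 per group). As a percent of the members this was 57.3%, 56.2% and 58.4% in WT and 80.9%, 87.6% and 88.8% in DKO, beside 66.0%, 68.0% and 67.1% and 80.3%, 83.5% and 82.0% of all coding genes. Thinning every library to the smallest total left an expected 51.0, 46.6 and 51.6 members in WT and 67.9, 69.6 and 74.3 in DKO. The median count of a member was 1 in every WT library and 5, 4 and 5 in DKO, against 2, 3 and 2 and 6, 7 and 7 for a coding gene. All 3 WT libraries were at 0 for 14 members (15.7%, against 12.6% of coding genes), and all 3 DKO libraries for 1 member (1.12%, against 6.71%). That member was Rps12l1, at 0 in all 6 libraries. Among the others at 0 in WT, Rpl32 had 19, 2 and 40 counts in DKO, Rpl38 had 5, 24 and 7, and Rpl8 had 9, 7 and 3. A count of 0 in a WT library allows a level of up to 3 counts, which is 11.6 to 15.8 normalized CPM.

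The members did not hold the top of the ranking that they usually hold in lymphocytes. Counts were ranked within each library among the 31134 symbols with a count in any library, and tied counts took their average rank. A count of 0, the lowest, thus stood at percentile 21.4, 20.4 and 20.3 in WT and 12.1, 10.2 and 11.2 in DKO. The median percentile of the members was 48.8, 50.5 and 47.0 in WT and 56.3, 47.1 and 53.5 in DKO (exact two-sided permutation p = 0.3, adjusted p = 0.6, n = 3 per group). A list of 30 other transcripts that are usually abundant in lymphocytes, such as Actb, B2m, Cd74 and Tmsb4x, held 28 with a count. Their median percentiles were 48.8, 20.4 and 33.7 in WT and 62.7, 47.1 and 55.2 in DKO. The 20.4 of WT2 is the percentile of a 0 count. In WT1 and DKO2 the list and the members had the same median, which is a tie of low counts. Members in the top 10% of ranks numbered 8, 13 and 3 in WT and 10, 7 and 8 in DKO. The top 1% held 2 members in WT1 (Rps15a and Rps10) and 1 in WT3 (Rpl29) and 0 in the other libraries. The best placed member of each library stood at rank 78, 402 and 165 in WT and 365, 811 and 662 in DKO. Counts divided by exonic length moved the members' median percentile to 59.1, 55.7 and 51.3 in WT and 65.3, 59.1 and 65.7 in DKO.

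**Figure D2:**
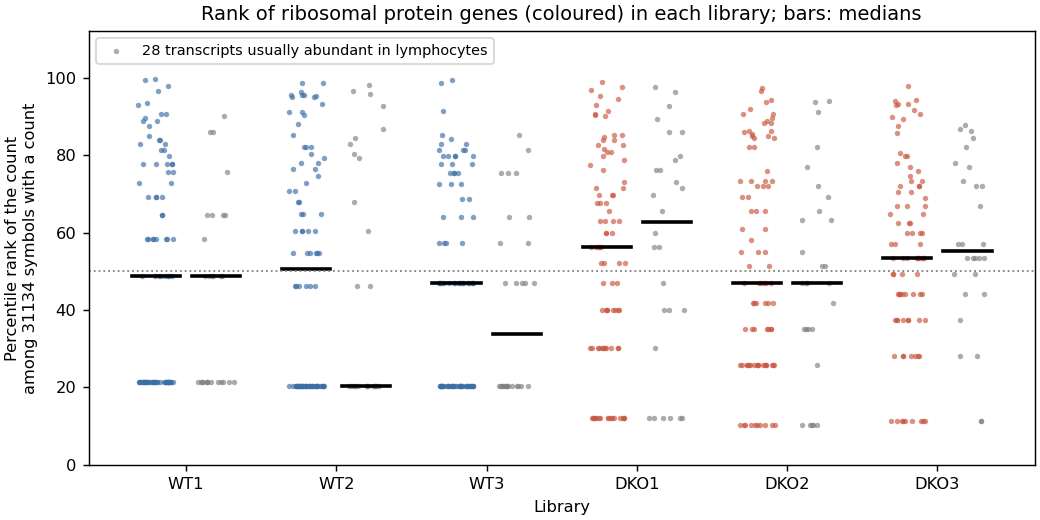
Percentile rank of each ribosomal protein gene (coloured points) and of 28 transcripts usually abundant in lymphocytes (grey points) in each library, with black bars at the medians and a dotted line at 50. The members spread from the tied percentile of a 0 count up into the top 10% in every library, with medians from 47.0 to 56.3. The band at the bottom is the genes with 0 counts, and it lies higher in WT than in DKO.

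Gene length moved with the counts of the members as it did for coding genes at large. The median exonic length, taken over all annotated transcripts of a gene, was 1730 bases for the members and 3556 for coding genes, and the median summed count over the 6 libraries was 35 and 46. Per kilobase of exonic length the median was 20.7 counts for large subunit genes, 16.7 for small subunit genes and 12.8 for coding genes. Across 88 members with a length, the Spearman correlation of exonic length with the summed count was 0.504, and across coding genes it was 0.603. These points share the same 6 libraries, and genes are not independent replicates. When coding genes were split into 10 equal groups by length, the members had medians of 14 against 6 counts in the shortest group, 20 against 14 in the next and 79 against 23 in the third. Each of the 8 groups that held a member had a higher median of summed counts for the members, although the longest 3 of them held only 4, 2 and 2 members. In group 6 the medians of members and coding genes were 43 and 14 in WT but 25.5 and 27 in DKO. No other group turned in WT or in DKO. The part of length in the members' low ranks was not tested.

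**Figure D3:**
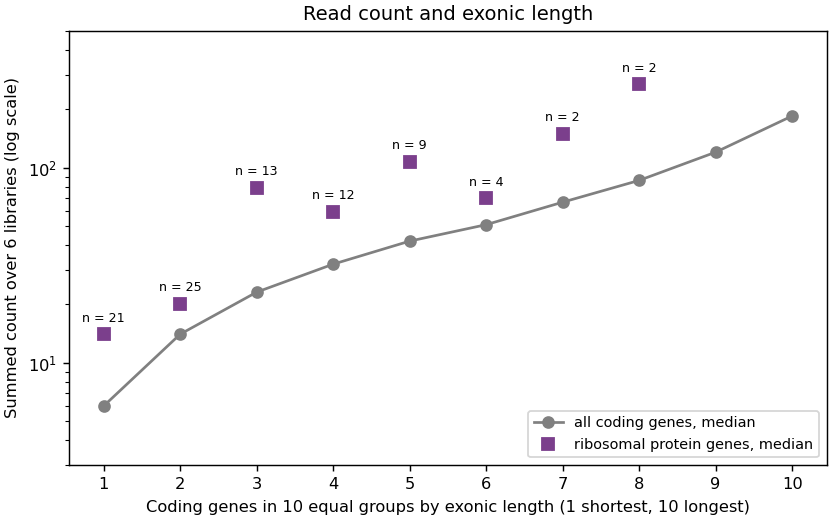
Median summed count over the 6 libraries (log scale) for coding genes in 10 equal groups by exonic length (x axis), for all coding genes (grey line) and for ribosomal protein genes (squares, with the number of members). Counts increase with length in the grey line from 6 to 184, and the squares lie above it in the 8 groups that hold members.

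The 52 large subunit genes together had more counts than the 37 small subunit genes in 5 of the 6 libraries. These totals and shares are not divided by the number of genes, which alone favours the large subunit. The median summed count of a gene over the 6 libraries was 37.5 in the large and 30 in the small subunit. The large subunit had 352, 629 and 457 counts in WT and 743, 742 and 669 in DKO, and the small subunit had 622, 565 and 69 in WT and 346, 440 and 403 in DKO. The small subunit share of the member counts was 63.9% (95% exact binomial interval 60.8% to 66.9%), 47.3% (44.5% to 50.2%) and 13.1% (10.4% to 16.3%) in WT and 31.8% (29.0% to 34.6%), 37.2% (34.5% to 40.1%) and 37.6% (34.7% to 40.6%) in DKO. The WT libraries spanned a wide range and enclosed all 3 DKO libraries. The mean was 41.4% ± 25.9 in WT and 35.5% ± 3.26 in DKO (SD, n = 3; exact two-sided permutation p = 0.7, adjusted p = 0.8). Without WT1 the difference, DKO minus WT, turned from -5.90 to 5.31 percentage points, and without WT3 it was -20.1.

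A few genes held a larger part of the member counts in the WT libraries than in the DKO libraries. The top member was Rps15a in WT1 with 319 counts (32.8% of the member counts), Rps18 in WT2 with 187 (15.7%) and Rpl29 in WT3 with 197 (37.5%). In DKO it was Rpl15 in DKO1 with 128 (11.8%), Rpl15 in DKO2 with 101 (8.54%) and Rps15a in DKO3 with 109 (10.2%). The 3 top members of a library held 59.5%, 37.4% and 59.5% of its member counts in WT and 27.0%, 21.1% and 21.1% in DKO. Over all libraries the 5, 10 and 20 largest members held 28.2%, 46.0% and 64.9% of the member counts. Of the 69 members with at least 10 counts in all, 36 had more than 50% of their normalized CPM in 1 library, and 10 had more than 80%. No share over all genes was computed beside these values, so they are not shown to be particular to the members. No member had 10 or more counts in all 6 libraries, and 26 had a count in all 6. The Spearman correlation of counts between libraries across the members was 0.137 to 0.418 within WT and 0.498 to 0.613 within DKO.

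**Figure D4:**
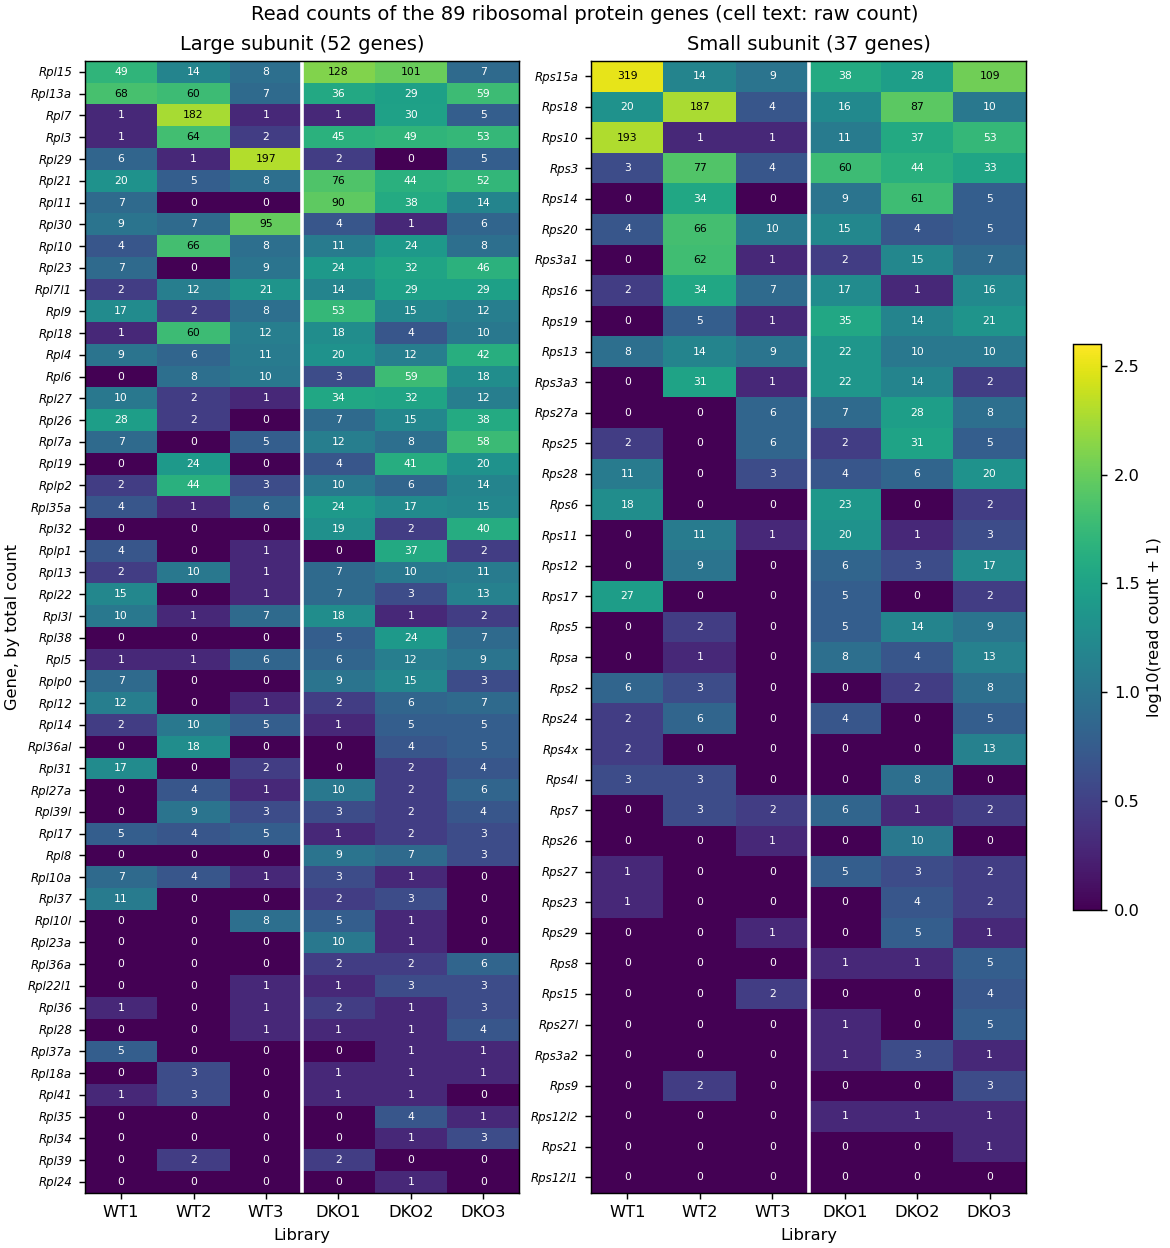
Raw read counts of all 89 ribosomal protein genes (rows, ordered by total count) in the 6 libraries (columns), with colour on a log10(count + 1) scale and a white line between WT and DKO. The brightest cells of WT are Rps15a and Rps10 in WT1, Rpl7 and Rps18 in WT2 and Rpl29 in WT3, and the lower rows of WT are mostly 0.

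Large subunit genes are taken first. Rpl3, a core protein near the peptidyl transferase centre, had 1, 64 and 2 counts in WT and 45, 49 and 53 in DKO. The DKO libraries lay close together and WT2 lay above all of them. Rpl4, which lines the exit tunnel, had 9, 6 and 11 counts in WT and 20, 12 and 42 in DKO. Rpl10, which joins late in the maturation of the subunit, had 4, 66 and 8 counts in WT and 11, 24 and 8 in DKO. Here again WT2 alone was high. Rpl5 and Rpl11 bind the 5S ribosomal RNA and, when free of the ribosome, inhibit Mdm2. Rpl5 had 1, 1 and 6 counts in WT and 6, 12 and 9 in DKO, and Rpl11 had 7, 0 and 0 in WT and 90, 38 and 14 in DKO. In raw counts both had their lowest values in WT, and for Rpl5 the groups met at 6 counts.

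The stalk proteins, which recruit the elongation factors, did not share a pattern. Rplp0 had 7, 0 and 0 counts in WT and 9, 15 and 3 in DKO. Rplp1 had 4, 0 and 1 in WT and 0, 37 and 2 in DKO, and Rplp2 had 2, 44 and 3 in WT and 10, 6 and 14 in DKO. DKO2 alone held most Rplp1 counts and WT2 alone most Rplp2 counts. The most abundant large subunit gene by counts, Rpl15, had 49, 14 and 8 in WT and 128, 101 and 7 in DKO, and Rpl13a, known also from a complex that silences inflammatory mRNAs, had 68, 60 and 7 in WT and 36, 29 and 59 in DKO. Rpl21 had 20, 5 and 8 in WT and 76, 44 and 52 in DKO in raw counts. Each DKO count of Rpl21 was above each WT count, but the normalized CPM overlapped.

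Some large subunit genes came from 1 library. Rpl29 had 6, 1 and 197 counts in WT and 2, 0 and 5 in DKO. Rpl30 had 9, 7 and 95 in WT and 4, 1 and 6 in DKO, so that both were high in WT3 alone. Rpl7 had 1, 182 and 1 in WT and 1, 30 and 5 in DKO. These 3 genes did not pass the filter on low counts and have no test. Of the 32 members that reached 30 counts in a library, 5 had no other library above 20% of that count, namely Rpl29, Rpl30, Rpl7, Rplp1 and Rps25.

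In the small subunit, Rps15a had 319, 14 and 9 counts in WT and 38, 28 and 109 in DKO. Rps10, a protein of the head of the subunit that is ubiquitinated on stalled ribosomes, had 193, 1 and 1 in WT and 11, 37 and 53 in DKO. WT1 was highest for both, followed by DKO3, and the other WT libraries had fewer raw counts than every DKO library. Rps18 had 20, 187 and 4 in WT and 16, 87 and 10 in DKO. Rps3, at the entry of the mRNA channel, had 3, 77 and 4 in WT and 60, 44 and 33 in DKO. Like Rpl3, it was highest in WT2 and nearly absent from WT1 and WT3. Rps20 had 4, 66 and 10 in WT and 15, 4 and 5 in DKO. Rps19, needed for maturation of the small subunit and mutated in Diamond-Blackfan anaemia, had 0, 5 and 1 in WT and 35, 14 and 21 in DKO, with no overlap. Rps6, the substrate of the S6 kinases, had 18, 0 and 0 in WT and 23, 0 and 2 in DKO.

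The paralogs, several of which are known from muscle or testis, had 15, 43 and 40 counts in WT and 42, 48 and 48 in DKO. Rpl7l1, whose protein acts in ribosome assembly, had 2, 12 and 21 counts in WT and 14, 29 and 29 in DKO. Rpl3l, known from heart and skeletal muscle, had 10, 1 and 7 in WT and 18, 1 and 2 in DKO. The other 6 had between 6 counts (Rps27l, all in DKO) and 27 counts (Rpl36al, 18 of them in WT2) over all libraries. Compared per kilobase of exonic length and summed over the libraries, the core gene was above its paralog for Rpl3 (67.4 against 23.7), Rpl7 (81.9 against 30.6) and Rpl10 (58.9 against 13.7). The same order held for Rpl22 (13.4 against 4.02 for Rpl22l1) and Rps27 (10.5 against 7.35 for Rps27l). These orders of sums did not hold in every library. Of the 220 counts of Rpl7, 182 lay in WT2, and Rpl7l1 had more counts than Rpl7 in WT1, WT3, DKO1 and DKO3. Rpl3 had fewer counts than Rpl3l in WT1 (1 against 10) and WT3 (2 against 7). The paralog was above the core gene for Rpl39l (25.3 against 2.79 for Rpl39), for Rps4l (14.8 against 9.20 for Rps4x) and for Rpl36al (27 counts over 1353 bases, against 10 counts over 1655 bases for Rpl36a). Each gene of these last 3 pairs had 27 counts or fewer. Reads of near-identical copies cannot be assigned with certainty here, which also touches Rps3a1 (87 counts) and its copy Rps3a3 (70 counts).

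Pseudogenes of these genes took up many counts as well. The table lists 248 symbols that carry a member's name with a pseudogene suffix, and 183 of them had a count. They summed to 341, 1050 and 339 counts in WT and 740, 878 and 730 in DKO, which is 67.6% of the member counts. Rpl38-ps1 had 3, 644 and 2 counts in WT and 4, 81 and 18 in DKO, while Rpl38 had 0, 0 and 0 in WT and 5, 24 and 7 in DKO. Rps12-ps26 had 163 of its counts in WT3, and Rps15a-ps3 had 140 of its counts in WT2. How reads that fit both a gene and its pseudogene were counted is not given in the sources used here, and member counts may hold or lack such reads. Some ribosomal proteins have symbols that fall outside the rule. Fau had 0, 0 and 0 counts in WT and 2, 8 and 4 in DKO, and Gnb2l1 (Rack1) had 18, 15 and 4 in WT and 64, 15 and 5 in DKO.

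The groups were compared gene by gene with edgeR's quasi-likelihood test over the 8895 genes that passed the filter, which kept 28 of the 89 members (31.5%, against 38.4% of coding genes). Of these, 19 were large and 9 small subunit genes. At a Benjamini-Hochberg adjusted p of 0.05, edgeR called 0 of the 28 members, and percent called over all tested genes was 0.0. At an unadjusted p below 0.05, 1 member was lower in DKO and 0 were higher, beside 6.59% and 5.49% of all tested genes. DESeq2 called 0 of the 26 members to which it gave an adjusted p, beside 7.08% of all genes with one, and limma-voom called 0. The lowest DESeq2 adjusted p of a member was 0.0640, for Rps20. The groups did not overlap in normalized CPM for 2 members, both higher in DKO (7.14%, beside 12.8% of all tested genes), and for 0 members lower in DKO (beside 6.39%). Neither share exceeds its background. These 28 passed the filter by their own counts and do not stand for all members. The 2 without overlap, Rps19 and Rpl23, each had a 0 in WT and needed DKO counts to pass the filter. Their lying higher in DKO is therefore not independent of the filter.

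The median log2 fold change of DKO against WT was -0.25 over the 28 members (13 above 0, 15 below) and -0.17 over all tested genes (4051 above 0, 4844 below). The 19 large subunit genes had a median of 0.31 (12 above 0, 7 below) and the 9 small subunit genes one of -1.34 (1 above 0, 8 below). The difference between the subunits was not tested. Without WT2 the members' median was 0.0393. With no scaling factor it was 0.58 and that of all tested genes 0.62, and the medians by subunit were 1.04 and -0.51. The median of the small subunit was 0.19 with no filter on low counts, -0.57 without WT2, -0.60 without DKO2 and -0.72 without WT1. The median of the large subunit ran from -0.0178 without DKO3 to 0.79 without WT1, and was 0.14 without WT3, 0.15 without DKO1 and 0.10 without DKO2. It was 0.94 with limma-voom.

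Single members carried wide errors. Rps20 had a log2 fold change of -2.68 ± 1.18 (SE; edgeR adjusted p = 0.405), with 109 ± 127 normalized CPM in WT and 17.0 ± 14.7 in DKO (SD, n = 3). Without WT2, where 66 of its 104 counts lay, the value was -1.07. Rps19, with 8.19 ± 9.99 normalized CPM in WT and 48.5 ± 27.6 in DKO, had 2.43 ± 1.16 (adjusted p = 0.419). It was higher in all 3 DKO libraries than in any WT library, and its value ranged from 1.98 to 4.08 when each library was left out. Rpl23 was the other member without overlap, with 7, 0 and 9 counts in WT and 24, 32 and 46 in DKO and a log2 fold change of 1.29 ± 1.16 (adjusted p = 0.654). Rpl11 had 3.05 ± 1.47 (adjusted p = 0.419), from 12.2 ± 21.1 normalized CPM in WT and 100.2 ± 92.0 in DKO, and WT1 was above 0 while the other WT libraries had none. Without WT1, which leaves the WT group at 0, the fitted value was 8.31, which depends on the prior count and is no bound.

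Several values hung on 1 library. For Rps15a the log2 fold change was -2.34 with all libraries and 1.26 without WT1, and for Rps10 it was -2.37 and 3.83. For Rps18 it was -1.97 with all libraries and 0.24 without WT2, and for Rplp2 it was -1.70 and 0.65. Rps3 went from -0.26 to 2.37 without WT2, and Rpl3 from 0.15 to 3.63. Leaving out 1 library moved the value of each of the 21 tested members named by the rule by more than 1.5-fold. The same held for 30 of the 34 other named genes. Of the tested members, 12 of 28 (42.9%) had more than 50% of their normalized CPM in 1 library, beside 29.7% of all tested genes.

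**Figure D5:**
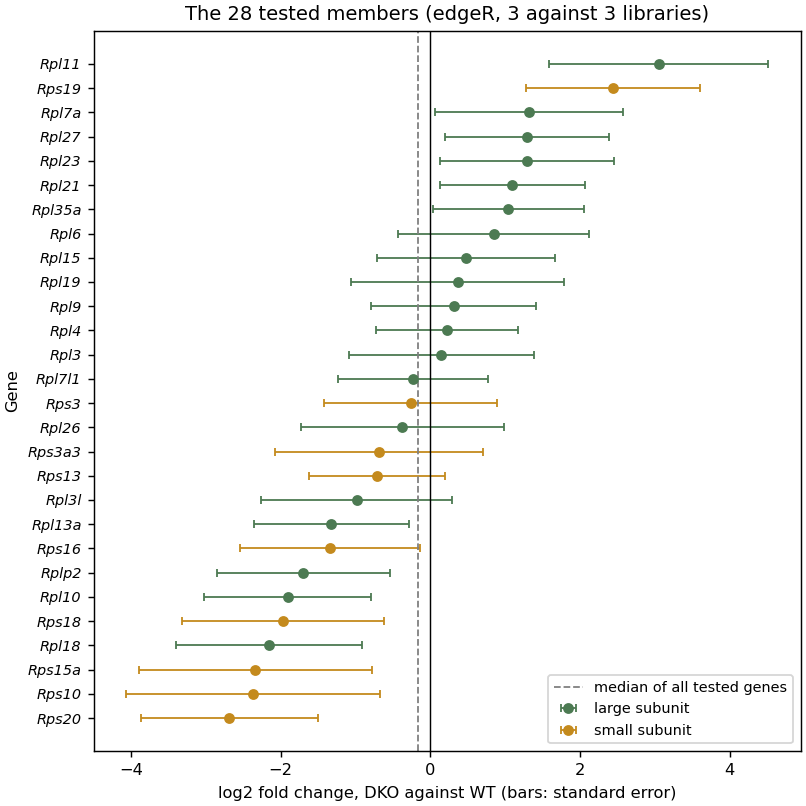
Log2 fold change of DKO against WT with standard errors (edgeR, 3 libraries per group) for the 28 ribosomal protein genes that passed the filter, coloured by subunit, with a dashed line at the median of all tested genes, -0.17. Large subunit genes lie on both sides of 0, 8 of 9 small subunit genes lie below it, and none passed the adjusted threshold.

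Genes that make, feed and use ribosomes were listed alongside the members, and edgeR called 0 of the tested genes in each list. Of the 15 translation factors with TOP mRNAs, 9 were tested, with 7 above 0, 2 below and a median of 1.57. Pabpc1, the poly(A)-binding protein, had 7, 9 and 3 counts in WT and 37, 56 and 103 in DKO (log2 fold change 2.13, edgeR adjusted p = 0.408). Hnrnpa1, an RNA-binding protein whose mRNA also starts with a TOP motif, had 5, 2 and 4 in WT and 73, 38 and 20 in DKO (2.32, adjusted p = 0.410). For both genes the groups did not overlap, which held for 2 of the 9 in this list, both higher in DKO (beside 12.8% of all tested genes). Both needed their DKO counts to pass the filter, so this separation is not independent of it. Of 16 tested initiation factors 12 were above 0 (median 0.58). Eif4g1, the scaffold of the cap-binding complex, had 49, 19 and 16 counts in WT and 4, 17 and 17 in DKO, apart between the groups only after scaling (-2.47, adjusted p = 0.395).

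Ribosome synthesis genes went in both directions. Of 5 tested polymerase I genes 2 were above 0 (median -0.22), and Ttf1, which ends ribosomal RNA transcription, had 5, 1 and 9 counts in WT and 75, 77 and 209 in DKO (3.22, edgeR adjusted p = 0.390). Of 18 tested small subunit assembly genes 11 were above 0 (median 0.54), and Nop58, a box C/D particle protein, had 3, 20 and 11 in WT and 79, 63 and 308 in DKO (2.55, adjusted p = 0.404). Of 28 tested genes on the list for large subunit assembly 12 were above 0 (median -0.25). Rbm19, a ribosome assembly gene placed on this list, had 60, 209 and 52 counts in WT and 2, 5 and 1 in DKO. Its log2 fold change was -6.38 (edgeR adjusted p = 0.389, DESeq2 adjusted p = 1.61e-06). Which subunit Rbm19 serves was not tested, and its place on the list is no evidence of it. Of 8 tested genes of nutrient control 5 were above 0 (median 0.45), with Rheb, the activator of mTORC1, at 10, 5 and 4 in WT and 78, 74 and 55 in DKO (2.17, edgeR adjusted p = 0.404). Of 11 tested genes of ribosome quality control 7 were above 0 (median 0.30), and of 6 tested transcripts abundant in lymphocytes 2 were (median -0.73). The named genes of these lists were picked by lowest edgeR p on the same counts. Among them, DESeq2 gave an adjusted p under the threshold also for Ttf1 (0.0250), Eif4g1 (0.0467), Ddx27 (0.0252), Ddx56 (0.0463) and H2-D1 (0.0338). DESeq2 called 7.08% of all genes with an adjusted p, but that share cannot be compared with genes picked in this way.

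Markers of other cell types were present in these sorted cells. The 7 monocyte and macrophage markers summed to 41.8 to 273 normalized CPM in WT and 373 to 781 in DKO, and 2 of the 4 tested were above 0. Lyz2 had 4, 0 and 10 counts in WT and 35, 92 and 206 in DKO (log2 fold change 3.15), and Itgam had 1, 9 and 21 and 81, 181 and 147 (2.41). Spic had 2, 13 and 12 in WT and 4, 9 and 13 in DKO (-1.27), and Csf1r had 0, 43 and 5 and 15, 10 and 27 (-0.89). T cell markers summed to 178 to 313 normalized CPM in WT and 122 to 199 in DKO, and neutrophil markers to 141 to 368 and 56.2 to 131. In raw counts both lists overlapped between the groups. T cell markers had 34, 81 and 46 in WT and 61, 108 and 63 in DKO, and neutrophil markers 27, 53 and 70 and 41, 71 and 29. Of 3 tested T cell markers 2 were above 0. Ltf, the only tested neutrophil marker, had 25, 37 and 51 counts in WT and 6, 13 and 17 in DKO, apart also in raw counts. Its log2 fold change was -2.92 (edgeR adjusted p = 0.390, DESeq2 adjusted p = 0.00892). Monocyte and macrophage markers had 8, 67 and 52 in WT and 165, 306 and 403 in DKO, apart on both scales. Every marker in these 3 lists had a count in some library, while 2 of 7 erythroid markers were at 0 in all 6. Erythroid markers summed to 58.0 to 120.1 normalized CPM in WT and 14.7 to 29.1 in DKO. In raw counts they summed to 23, 15 and 17 in WT and 10, 8 and 15 in DKO, so the groups met at 15. Their part in the members' values was not tested.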

How the data were processed

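The table deposited by the authors holds raw counts, not normalized, for each symbol in each library, and 0 of its columns were unmatched. Per the submitters' processing notes, CASAVA, STAR, edgeR, R 3.6.3 and the build mm10 were used, with no roles given. How reads were counted (tool, strand, multi-mapping, annotation) is not given in the sources used here. Reads of overlapping, antisense and near-identical genes therefore cannot be told apart.

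Counts were fitted on the whole table with edgeR 4.0.16 (R 4.3.3, limma 3.58.1), after filterByExpr (minimum count 10) and TMM scaling, by its robust quasi-likelihood test without covariates. Benjamini-Hochberg adjustment ran over all 8895 kept genes (threshold 0.05). DESeq2 1.42.0, limma-voom, other scalings and filters, each library left out and the replicate number as a block were alternatives; leaving out the paralogs together with the further copies was chosen after seeing the data. The fit was also run on simulated counts as a check of the code. Its outcome is not given here, and no power at the spread of these data is drawn from it. Single values per library were compared by exact permutation tests (Python 3.11.15, scipy 1.17.1). Exonic lengths and gene types were looked up by symbol in GENCODE mouse release 21 (mm10): 31032 symbols (88.2%), and 88 of the members, had 1 gene.

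Members and lists were chosen with earlier results of these data known. Named genes were the 12 members with the largest mean normalized CPM, the 8 tested members in each direction with the smallest p, the paralogs, members at 0 everywhere, Bnip3l, Bnip3, and from each list up to 4 genes of lowest p. Other members and the pseudogenes were named after their values were seen.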

Additional observations from a re-analysis of the deposited data

How the results depend on the processing

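Depth (312908 to 517057 counts per library) and 3 libraries per group with a biological coefficient of variation of 0.915 limited what could be detected, and 61 of the 89 members were not tested. Members called stayed at 0 in each alternative run. Genes called over the whole table were 0 as reported, 130 with no filter on low counts and 601 with DESeq2. The members' median log2 fold change, -0.25, was 0.58 with no scaling factor, 0.35 with no filter, 0.43 with limma-voom and -0.52 to 0.0393 with 1 library left out. The share of all counts, a difference of -0.0108 percentage points, was 0.00697 with the pseudogenes added and -0.0476 to 0.0258 with 1 library left out, and the small subunit share, -5.90, was -20.1 to 5.31. The difference in median rank, 3.55, was -2.69 among the genes kept. The causes were not tested.

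The replicate block gave 0 called genes and a members' median of 0.29, with 1.03 for the large and -0.53 for the small subunit. Deviations of libraries with the same number correlated at 0.0240, 0.0308 and 0.0379, each the highest for its number but all under 0.1, so the numbers were not taken to pair the samples. With the block Rps10 was 1.88, Rps3 0.94 and Rpl7l1 0.17.

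In other fits, Rps10 was 0.69 with limma-voom. Rps3 was 0.0844 with upper quartile scaling, 0.62 with no scaling factor and 1.08 with limma-voom. Rpl7l1 was 0.0399 with upper quartile scaling, 0.55 with no scaling factor, 0.11 with no filter and 0.0886 with limma-voom, and Polr1e was 0.11 with limma-voom.

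With 1 library left out, several log2 fold changes took either sign. Among members, Rps15a spanned -2.9996 to 1.26, Rps10 -2.90 to 3.83, Rps18 -3.27 to 0.24 and Rpl15 -0.0815 to 1.82. Rps3 spanned -0.71 to 2.37, Rpl3 -0.33 to 3.63, Rpl6 -0.28 to 1.70, Rplp2 -2.12 to 0.65 and Rpl7l1 -0.65 to 0.77. Among other genes, Noc2l spanned -5.54 to 0.70, Rptor -2.35 to 0.18, Zak -1.37 to 0.0291 and H2-Eb1 -3.50 to 1.54.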
